A study of Mus musculus with 8 samples.

Results

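The genes described here are the mouse zinc finger protein genes that carry the name Zfp followed by a number. They were chosen by 2 conditions, a symbol made of Zfp, a number and at most 1 further letter, and a mean of at least 100 raw counts over the 8 libraries. Of the 22322 genes in the table, 396 had such a symbol and 302 also met the count condition. The condition used the mean level over all libraries and not the difference between the groups. The members with the lowest mean counts were Zfp976 (100) and Zfp248 (100.4), and the symbols closest below the condition were Zfp619 and Zfp931, both with a mean of 98.8 counts.

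The study measured RNA in 8 libraries labelled as primary mouse renal fibroblasts. The 4 control libraries came from cells given an adenovirus that carries GFP (Ad-GFP, labelled WT). The other 4 libraries came from cells given an adenovirus that carries Cre recombinase (Ad-Cre), with the genotype labelled suv39h1 knockdown. All 8 cultures received TGF-β at 5 ng/ml for 48 h, so no library shows cells without TGF-β or without virus. The labels do not say which allele Cre acts on, what share of the cells was infected, or whether the replicates came from separate animals or cultures. The p-values therefore measure only how these libraries vary, and that variation may be technical.

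Zinc finger proteins of the C2H2 type bind DNA, and some bind RNA, through repeated small domains that are each held together by a zinc ion between a pair of cysteines and a pair of histidines. Many of them also carry a KRAB domain, which recruits the corepressor TRIM28 (also called KAP1) and, through it, the histone methyltransferase SETDB1, heterochromatin protein HP1 and silencing H3K9me3 at retroelements and at imprinted regions. KRAB genes lie in chromosomal clusters that grew by gene duplication, and their own coding ends are known to carry H3K9me3. SUV39H1, the target of the study, is another H3K9 methyltransferase, best known from heterochromatin near centromeres. No chromatin mark was measured in these libraries.

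The finger that names the family can be read from the coding sequences of 4 members whose values are described below: Zfp37 and Zfp239, with the largest fall and rise, and Zfp709 and Zfp961, neighbours on chromosome 8. The lines below give 78 bases of each GENCODE M21 coding sequence. They encode the first finger of standard spacing that is followed directly by a linker of the residues TGEKP. Fingers without that exact linker can lie before it. Capitals mark the codons of the 2 cysteines and the 2 histidines that hold the zinc ion.
Zfp37: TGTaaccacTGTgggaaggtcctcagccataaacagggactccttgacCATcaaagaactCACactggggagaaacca
Zfp709: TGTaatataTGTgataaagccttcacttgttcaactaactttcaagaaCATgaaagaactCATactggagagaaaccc
Zfp961: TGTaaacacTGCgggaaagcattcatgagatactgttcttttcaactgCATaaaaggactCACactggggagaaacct
Zfp239: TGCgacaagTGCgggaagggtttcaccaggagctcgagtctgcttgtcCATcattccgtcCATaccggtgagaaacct
Compared with Zfp37, 48 of the 78 bases were identical in Zfp709, 49 in Zfp961 and 47 in Zfp239. The stretches were chosen to encode the same cysteines, histidines and linker residues at the same places, which fixes part of this identity. It is no measure of likeness between the whole genes. The encoded proteins held 12 fingers in Zfp37, 18 in Zfp709, 11 in Zfp961 and 7 in Zfp239.

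By their coding sequences, 293 of the 302 members encoded at least 1 C2H2 finger. A search with a sequence profile found a KRAB domain in 174 of these, and the other 119 are called other C2H2 members below. These 119 had no match to the profile. KRAB domains that differ from it can have been missed, so this class may hold some KRAB genes. The median C2H2 member had 11 fingers and the highest number was 36. No C2H2 finger was found in 8 members, namely Zfp36, Zfp185, Zfp330, Zfp365, Zfp503, Zfp703, Zfp781 and Zfp839. Zfp469 had no coding sequence in the annotation. The C2H2 pattern therefore fitted 293 of the 302 members. Fingers of other types were not searched for, and Zfp469 could not be judged.

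Library totals ranged from 15879244 to 23940043 counts, and the 4 Ad-Cre libraries were the deepest. Levels are given as CPM, counts relative to the TMM-scaled library total, in the order of replicates 1 to 4. Suv39h1 had 29.0, 27.8, 29.3 and 29.6 CPM with Ad-GFP, and with Ad-Cre it had 25.3, 22.8, 21.6 and 22.6 CPM. The groups did not overlap, and the Ad-Cre level was 79.6% of the Ad-GFP level (edgeR quasi-likelihood test, adjusted p = 3.293e-05). The markers went in part against the labelled cell type. The median level of the tested genes was 172 FPKM over 5 epithelial markers and 4.95 FPKM over 9 fibroblast markers. Within the fibroblast list the levels in Ad-GFP were uneven, with Vim at 116.1, Col1a2 at 36.7, Col1a1 at 35.1 and Col3a1 at 9.97 FPKM and Dcn and Pdgfra at 2.40 and 0.968 FPKM. All 12 mitosis genes were lower in Ad-Cre (adjusted p under 0.05, as for every call below), with summed levels of 169.1 to 181.7 CPM in Ad-GFP and 92.8 to 102.4 CPM in Ad-Cre. Of the other lists, 5 of 9 fibroblast, 3 of 5 epithelial, 8 of 9 endothelial and 8 of 10 leukocyte markers tested were lower in Ad-Cre, and 1 epithelial marker, Epcam, was higher. Fibroblast markers summed to between 732.7 and 779.8 CPM in Ad-GFP and between 468.6 and 543.0 CPM in Ad-Cre, and epithelial markers to between 3579 and 3760 CPM and between 3093 and 3161 CPM. Endothelial markers summed to between 114.7 and 120.5 CPM in Ad-GFP and between 54.4 and 62.7 CPM in Ad-Cre, and leukocyte markers to between 269.1 and 311.4 CPM and between 236.7 and 247.1 CPM. No marker was at 0 in all libraries. The part of these shifts in the changes of Zfp genes was not tested, and in such bulk samples fewer cells of a type and less RNA per cell cannot be told apart.

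Small changes in both directions were the main feature of the family. Of the 302 members, 55 rose and 37 fell in Ad-Cre and 210 did not pass the test. A gene is said to rise or fall here where its adjusted p was under 0.05 in edgeR's quasi-likelihood test, with adjustment over all 13337 genes tested. The members called made up 30.5% of the family, against 40.3% of all genes tested. The share that rose was 18.2%, against 19.8% of all genes, and the share that fell was 12.3%, against 20.5%. Among all genes with a mean of at least 100 counts, 43.2% were called, with 23.7% higher and 19.5% lower. Both shares of the family lay below those of genes that met the same count condition. The groups did not overlap in CPM for 82 members (27.2%), against 35.4% of all genes tested. With libraries scaled by upper-quartile factors the called members divided into 40 higher and 41 lower, against 16.2% of all genes higher and 23.2% lower (39.4% called), so the excess of rises over falls depended on the scaling. On the authors' FPKM values, tested with limma, 23 members were higher and 29 lower, against 12% and 18.2% of all genes (30.2% called).

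Log2 fold changes of the members ran from -0.84 to 0.45, and 2 members, Zfp37 and Zfp820, changed by 1.5-fold or more. No member changed by 2-fold, as did 51 of the 10624 tested genes that met the same count condition. Of the 92 called members, 70 differed by less than 1.25-fold, against 3591 of the 4586 called genes at that condition, a like share. The median log2 fold change was 0.04 over the members, 0.004 over all genes tested and 0.02 over genes with a mean of at least 100 counts. Values above 0 were found for 194 members (64.2%), against 51.0% of all genes and 55.3% of genes at the same count condition. Per library, the median deviation of the members from their own mean over the 8 libraries was between -0.025 and -0.012 on the log2 scale in Ad-GFP and between 0.0187 and 0.0216 in Ad-Cre. Relative to the TMM-scaled library totals, the members together took between 0.959% and 0.971% in Ad-GFP and between 0.973% and 0.985% in Ad-Cre. On this scaling both measures put all 4 Ad-Cre libraries slightly above all 4 Ad-GFP libraries. The TMM factors were 1.006 to 1.009 in Ad-GFP and 0.992 to 0.994 in Ad-Cre. As shares of the unscaled totals, the values of the groups overlap, so the order of the shares depends on the scaling.

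**Figure D1:**
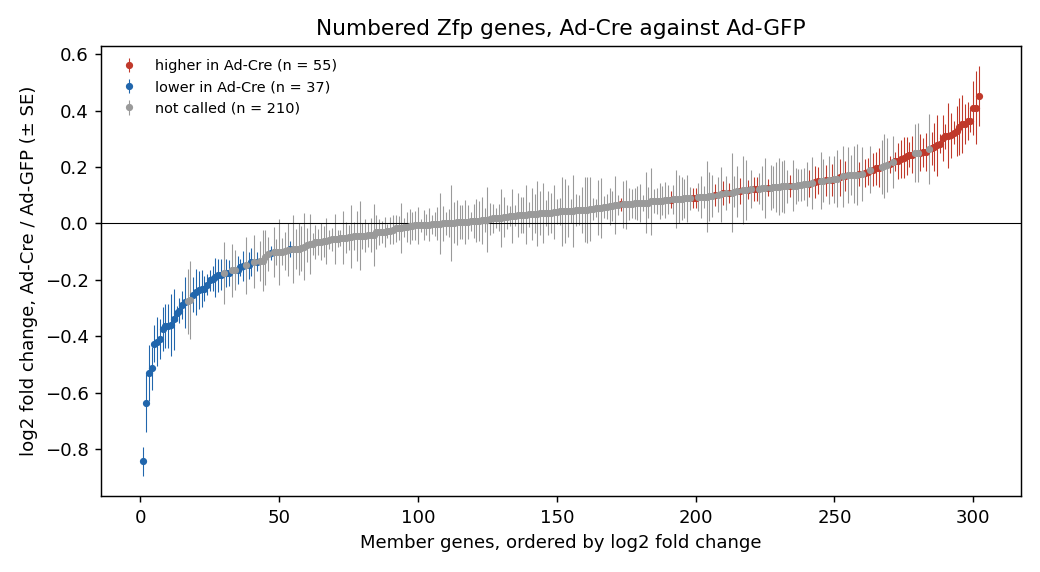
Log2 fold change of Ad-Cre against Ad-GFP (vertical axis, points, with bars of 1 standard error) for the 302 members in order of that change (horizontal axis); red marks the 55 called higher, blue the 37 called lower and grey the 210 not called. The curve is shallow through its middle and bends at both ends, with Zfp37 alone at the lower end at -0.84.

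Zfp37, a C2H2 gene best known from brain and testis, showed the largest fall. Zfp37 stood at 42.8, 41.1, 43.0 and 41.6 CPM in the Ad-GFP libraries and at 24.3, 25.1, 22.1 and 22.4 CPM in the Ad-Cre libraries. The highest Ad-Cre value lay far under the lowest Ad-GFP value, and the libraries of each group stood close together. The Ad-Cre level was 55.7% of the Ad-GFP level, or -0.84 ± 0.051 on the log2 scale (standard error from 4 libraries a group, edgeR adjusted p = 6.182e-13). The gene lies on chromosome 4 from 62189540 to 62231047 (GRCm38, minus strand), outside the clusters described below.

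Zfp820, a KRAB gene of the chromosome 17 cluster, was the next largest fall. Its values were 10.8, 9.29, 10.1 and 8.38 CPM in Ad-GFP and 5.88, 6.77, 5.58 and 6.52 CPM in Ad-Cre, which is 64.4% of the Ad-GFP level (edgeR adjusted p = 1.994e-05). Zfp709, a KRAB gene on chromosome 8, stood at 14.7, 17.3, 14.1 and 15.3 CPM in Ad-GFP and at 10.97, 10.64, 10.48 and 11.01 CPM in Ad-Cre, which is 70.05% of the Ad-GFP level. Zfp599, another KRAB gene, fell to 74.8%, from between 11.2 and 11.6 CPM to between 7.50 and 9.42 CPM. None of these groups overlapped. Zfp57 and Zfp385a completed the 6 largest falls and are described with their roles.

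Zfp239, a C2H2 gene without a KRAB match, showed the largest rise among members whose groups did not overlap. The values were 6.25, 6.08, 5.50 and 5.75 CPM in Ad-GFP and 8.34, 7.78, 7.16 and 9.02 CPM in Ad-Cre. This is 136.7% of the Ad-GFP level, or 0.45 ± 0.11 on the log2 scale (standard error from 4 libraries a group, edgeR adjusted p = 0.00124). Every Ad-Cre library was above every Ad-GFP library, at levels near the lower end of the family. Zfp318, a nuclear protein known from B cells, where it lets IgD be made beside IgM, rose at a higher level. It stood at 43.7, 44.5, 47.3 and 47.2 CPM in Ad-GFP and at 62.0, 57.7, 57.0 and 58.7 CPM in Ad-Cre, 128.8% of the Ad-GFP level (edgeR adjusted p = 9.733e-08). The KRAB genes Zfp354c, Zfp398 and Zfp772 rose to 132.8%, 128.6% and 127.6% of the Ad-GFP level. Zfp449, a C2H2 gene without a KRAB match, rose to 127.6%.

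**Figure D2:**
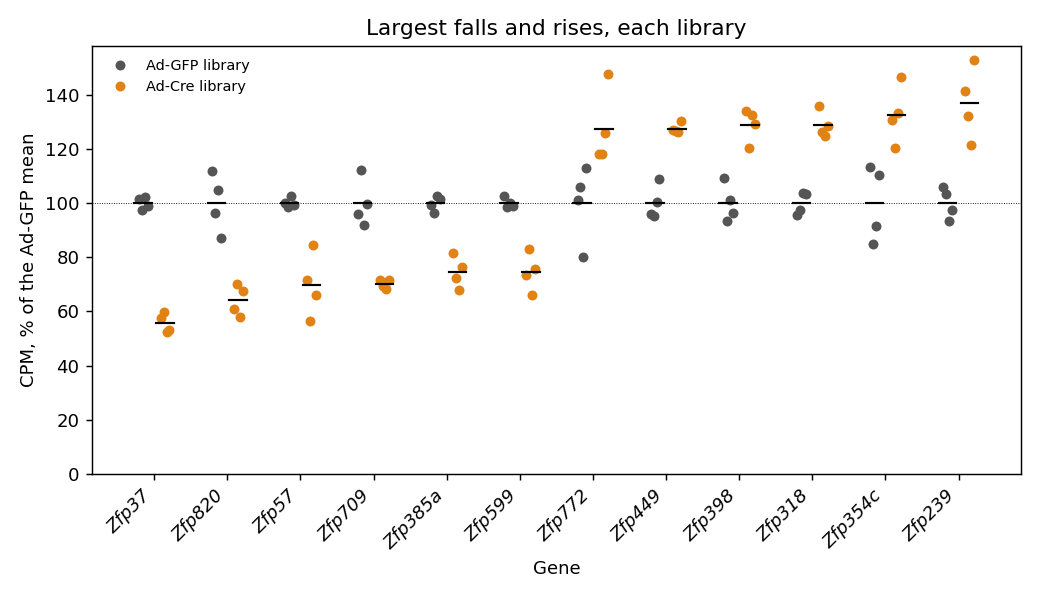
CPM of each library as a percent of the gene's Ad-GFP mean (vertical axis, starting at 0) for the 6 largest falls and the 6 largest rises among called members whose groups did not overlap (horizontal axis); grey points are Ad-GFP libraries, orange points Ad-Cre libraries and black lines group means. Zfp37 stands at 55.7% in Ad-Cre and Zfp239 at 136.7%, and no orange point reaches the grey points of its gene.

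The 4 members of highest mean FPKM changed little. Of all members from 800 counts 44.9% were called, against 51.6% of all genes from 800 counts. Zfp207 (also BuGZ), a protein that loads the checkpoint protein BUB3 onto kinetochores, had the highest level per gene length, a mean of 88.9 FPKM, and its Ad-Cre level was 98.2% of the Ad-GFP level (edgeR adjusted p = 0.450). Zfp106, an RNA-binding protein needed by motor neurons, had a mean of 50.7 FPKM and stood at 99.6%. Zfp664 had a mean of 52.1 FPKM and stood at 104.8%. Its call (edgeR adjusted p = 0.0318) was lost, with adjusted p up to 0.110, when Ad-Cre replicate 3 or 4 or Ad-GFP replicate 1, 2 or 3 was left out, and the groups overlapped. Zfp445 had a mean of 50.3 FPKM and fell to 93.0%. The median member had a mean of 6.41 FPKM, against 10.2 FPKM over all genes tested.

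Of 6 tested genes whose proteins silence retroelements or keep imprints, 3 fell and none rose, where 20.5% of all genes tested fell and 19.8% rose. The list is too short to read a direction from, and the 3 are KRAB genes that protect imprinted or placental control regions. Zfp57, which binds methylated imprinting control regions and recruits TRIM28 there, stood at 12.4, 12.2, 12.7 and 12.3 CPM in Ad-GFP and at 8.90, 6.98, 10.5 and 8.20 CPM in Ad-Cre. The Ad-GFP values lay close together, the Ad-Cre values were spread more widely, and the group level was 69.3% of Ad-GFP (edgeR adjusted p = 1.083e-04). Zfp568, the repressor of the placental Igf2 promoter, stood at 181.1, 182.7, 174.4 and 178.1 CPM in Ad-GFP and at 143.8, 144.7, 146.4 and 139.7 CPM in Ad-Cre, which is 80.2% (edgeR adjusted p = 2.691e-10). Zfp445, a further guardian of imprints, stood at 181.6, 182.0, 178.9 and 177.4 CPM in Ad-GFP and at 163.1, 164.8, 173.4 and 168.4 CPM in Ad-Cre. For both genes every Ad-Cre library lay below every Ad-GFP library. Zfp809, which silences proviruses of murine leukemia virus, stood at 108.1% (edgeR adjusted p = 0.105) and Zfp932, a KRAB repressor of endogenous retroviruses, at 108.8% (adjusted p = 0.159). The sixth gene, Zfp708, lay below the count condition.

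Of 9 members that act on RNA, ribosomes or the spindle, 2 rose and 1 fell, against 19.8% and 20.5% of all genes tested. The fall was Zfp385a, a partner of p53 that also binds RNA. It stood at 20.4, 19.7, 21.0 and 20.8 CPM in Ad-GFP and at 16.7, 14.8, 13.9 and 15.6 CPM in Ad-Cre, which is 74.4% of Ad-GFP (edgeR adjusted p = 9.075e-06). The rises, of Zfp326 (a factor that couples transcription and splicing) to 111.3% and of Zfp622 (a ribosome maturation factor) to 107.3%, were small. Leaving out single libraries ended the call of Zfp326 for Ad-Cre replicates 2 and 4 and Ad-GFP replicates 2 and 3 (adjusted p up to 0.141). It ended that of Zfp622 for Ad-Cre replicates 2 and 4 and Ad-GFP replicates 1, 3 and 4 (adjusted p up to 0.122). Zfp36 (tristetraprolin), which brings AU-rich mRNAs to decay and has fingers of another type, stood at 92.8% (edgeR adjusted p = 0.166).

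Of 5 genes listed under mesenchymal and adipocyte lineages, 2 fell and none rose. Of all genes tested 20.5% fell and 19.8% rose (40.3% called). Zfp521, a cofactor that holds back adipocyte formation, stood at 13.3, 12.8, 11.8 and 13.4 CPM in Ad-GFP and at 10.1, 9.92, 10.1 and 9.70 CPM in Ad-Cre, which is 77.8% (edgeR adjusted p = 5.196e-04). Zfp703, a transcriptional corepressor, stood at 51.1, 46.8, 49.9 and 54.2 CPM in Ad-GFP and at 44.3, 42.4, 41.1 and 44.3 CPM in Ad-Cre, which is 85.2%. Neither pair of groups overlapped. These falls stood beside the lower fibroblast markers given above, whose part was not tested. Zfp516, an inducer of brown fat genes, stood at 96.1% and Zfp467 at 97.0%, neither past the test. Zfp423, the preadipocyte factor, had a mean of 11.4 counts and is no member.

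Sequence-specific regulators went both ways, with 2 higher and 3 lower of 10, where 23.7% of genes at the same count condition were higher and 19.5% lower. Zfp335, which acts in neural progenitors and in T cells, stood at 43.6, 41.3, 44.3 and 47.8 CPM in Ad-GFP and at 39.0, 35.8, 36.0 and 34.2 CPM in Ad-Cre, which is 81.8% (edgeR adjusted p = 4.955e-05). Zfp217, a partner of the CoREST and LSD1 complex, stood at 62.3, 63.8, 59.2 and 67.1 CPM in Ad-GFP and at 57.8, 51.0, 54.4 and 57.5 CPM in Ad-Cre, which is 87.3%. No Ad-Cre library of either gene reached the Ad-GFP values. Zfp143, an activator bound at promoters and chromatin loops, fell to 90.3%. Without Ad-Cre replicate 4 its adjusted p was 0.0506. Zfp148, which binds GC-rich promoters, rose to 108.6% and Zfp263 rose to 111.0%. The call of Zfp263 was lost without Ad-Cre replicate 3 or Ad-GFP replicate 1 (adjusted p up to 0.0749).

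Partners of chromatin complexes were called in 6 of 10 cases, 3 in each direction, where 43.2% of genes at the same count condition were called. The median of their mean counts was 1251, and of all genes from 800 counts 51.6% were called. Zfp462, which binds the H3K9 methyltransferases GLP and G9a, stood at 128.3, 125.8, 127.4 and 135.6 CPM in Ad-GFP and at 116.9, 114.5, 116.6 and 116.1 CPM in Ad-Cre, which is 89.8% (edgeR adjusted p = 9.574e-05). Zfp532, of a complex with Zfp592 and Zfp687, stood at 27.8, 25.5, 27.8 and 28.4 CPM in Ad-GFP and at 23.0, 25.3, 23.6 and 24.3 CPM in Ad-Cre, which is 88.1%. Its groups came close without overlapping. Zfp592 stood at 104.2% and Zfp687 at 99.7%, neither past the test. Zfp644, another partner of G9a and GLP, fell to 93.9%. Zfp518b, Zfp451 and Zfp609 rose to 108.9%, 106.5% and 106.5%. The calls of these 3 rises were lost when single libraries were left out, Zfp518b without Ad-Cre replicate 1 or 4 or Ad-GFP replicate 1 or 3 (adjusted p up to 0.0895), Zfp451 without any library except Ad-GFP replicate 1 (up to 0.176) and Zfp609 without any except Ad-Cre replicate 2 and Ad-GFP replicate 3 (up to 0.167).

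The corepressor pathway that KRAB proteins use was measured beside them. Of 26 genes of KRAB corepression and H3K9 methylation, 7 rose and 8 fell (57.7% called, against 43.2% of genes at the same count condition), and the median change was -0.01 on the log2 scale. The median of their mean counts was 1604, and of all genes from 800 counts 51.6% were called. Trim28, the corepressor itself, stood at 253.9, 246.2, 254.8 and 254.9 CPM in Ad-GFP and at 263.8, 240.0, 255.4 and 247.6 CPM in Ad-Cre, which is 99.6% (edgeR adjusted p = 0.892). Setdb1 stood at 73.1, 74.1, 75.3 and 71.8 CPM in Ad-GFP and at 77.3, 77.4, 74.4 and 71.5 CPM in Ad-Cre, which is 102.1% (adjusted p = 0.524). The groups of both genes overlapped. The largest change of the list was that of Resf1, a partner of SETDB1 in silencing retroelements, which fell from 146.5, 144.6, 150.0 and 137.6 CPM to 74.4, 77.8, 78.1 and 72.3 CPM, 52.3% of Ad-GFP (adjusted p = 2.116e-17). Atf7ip, which stabilises SETDB1, fell to 83.1%, the maintenance DNA methyltransferase gene Dnmt1 to 80.4% and its recruiter Uhrf1 to 76.6%. Among the rises, Atrx stood at 110.2%, and the HP1 genes Cbx1 and Cbx5 at 110.4% and 108.7%. Cbx3, a further HP1 gene, stood at 100.5% and did not pass the test (edgeR adjusted p = 0.902). Suv39h2, the closest relative of Suv39h1, stood at 102.8% (adjusted p = 0.768). Resf1, Atf7ip, Dnmt1, Uhrf1, Atrx, Cbx1, Cbx5, Cbx3 and Suv39h2 were picked from the list after their values were seen.

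The KRAB members had lower counts than the other C2H2 members, and their share of calls is given beside that. Of 174 KRAB members, 25 rose and 18 fell (24.7% called, median log2 fold change 0.05). Of 119 other C2H2 members, 28 rose and 18 fell (38.7% called, median 0.03). The median of the mean counts was 264.4 for KRAB members and 685.9 for the others, and the share called grew with the count. Between 100 and 200 counts 15.3% of members were called against 31.4% of all genes, between 200 and 400 counts 29.6% against 33.1%, between 400 and 800 counts 35.1% against 39.3%, and from 800 counts 44.9% against 51.6%. The share of members called was below that of all genes in each of these ranges. The difference between the classes was not tested. By finger number, 9 of 41 members with 1 to 4 fingers rose and 5 fell, 18 of 78 with 5 to 9 fingers rose and 6 fell, 13 of 109 with 10 to 14 fingers rose and 17 fell, and 13 of 65 with 15 or more rose and 8 fell. Of all genes at the same count condition 23.7% rose and 19.5% fell. Median mean counts in these finger groups were 457, 575.9, 347.1 and 335.6 in the same order. Differences between the finger groups were not tested. With upper-quartile scaling 19 KRAB members were higher and 20 lower, and 20 other C2H2 members were higher and 19 lower.

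**Figure D3:**
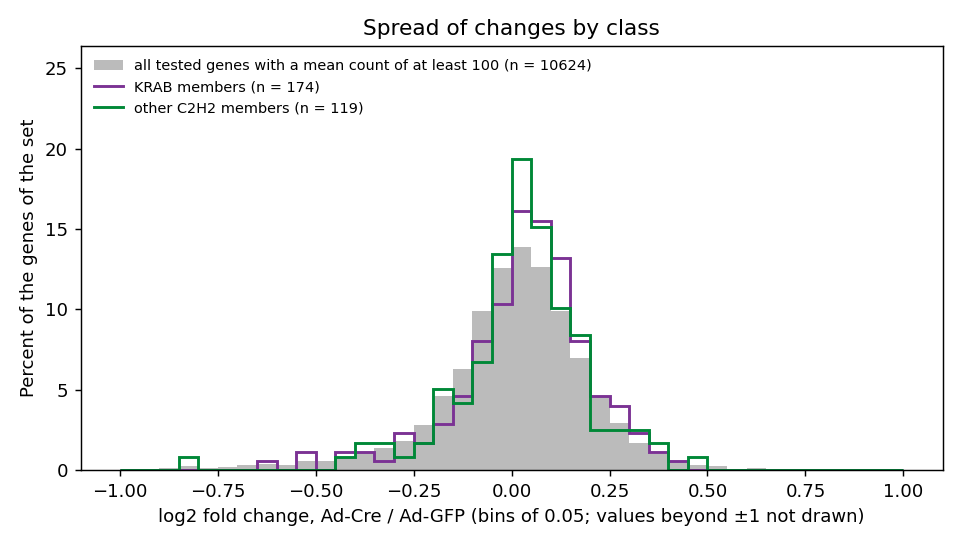
Percent of genes (vertical axis) in bins of log2 fold change of Ad-Cre against Ad-GFP (horizontal axis, bins of 0.05) for 10624 tested genes with a mean of at least 100 counts (grey fill), 174 KRAB members (purple line) and 119 other C2H2 members (green line); values beyond 1 in either direction are not drawn. Both member classes are centred close to 0, with medians of 0.05 and 0.03, and hold few genes in the tails.

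Most members lay in chromosomal clusters. A cluster was taken as 3 or more numbered Zfp symbols, at any level, with at most 500 kb between neighbouring starts, in GRCm38 coordinates. There were 33 clusters, which held 179 members, and 123 members lay outside. In clusters 25 members rose and 18 fell (24.02% called), and outside 30 rose and 19 fell (39.8%). Of all genes at the same count condition 43.2% were called, so both shares lay below that of genes in general. Among KRAB members the share called was 24.1% in clusters and 27.3% outside. For other C2H2 members it was 22.9% of 35 in clusters and 45.2% of 84 outside. Median mean counts were 276 in clusters and 615.4 outside, so the clusters also held the lower counts. Rises and falls stood side by side in 6 clusters, 12 had only rises, 5 only falls and 10 no called member.

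The largest cluster spans chr17:21008903-23599487 and held 23 members, 22 of them KRAB genes. Of the 23 members, 4 rose and 3 fell, where 23.7% of genes at the same count condition rose and 19.5% fell. Zfp677, Zfp53, Zfp51 and Zfp945 rose to 124.2%, 120.2%, 118.0% and 114.6% of the Ad-GFP level. Zfp820, Zfp948 and Zfp946 fell to 64.4%, 77.8% and 88.1%. Zfp53 stood at 20.1, 20.2, 19.9 and 20.6 CPM in Ad-GFP and at 23.4, 23.3, 24.2 and 26.2 CPM in Ad-Cre. Its near neighbour Zfp948 moved the other way, from 13.5, 14.4, 14.9 and 12.5 CPM to 10.7, 10.3, 10.8 and 11.3 CPM. Between them lies Zfp52, with a log2 fold change of -0.009 (edgeR adjusted p = 0.903). Genes that changed in opposite directions thus stood within 1 stretch of the cluster. Zfp946 no longer passed when Ad-GFP replicate 4 was left out (adjusted p = 0.0606). The other 16 members did not pass the test, with log2 fold changes from -0.07 to 0.17.

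The next largest cluster, chr13:67038596-67827002, held 18 members among 23 symbols, all 18 of them KRAB genes. Of these 18, Zfp953 alone passed the test, at 120.6% (edgeR adjusted p = 0.0136). It was named after its value was seen. Its Ad-GFP values were 9.52, 8.79, 8.51 and 8.32 CPM and its Ad-Cre values 9.79, 10.77, 10.96 and 10.83 CPM. Log2 fold changes were above 0 for 16 of the 18 members. Of all members 64.2% lay above 0. Of genes at the same count condition 55.3% lay above 0 and 43.2% were called. Genes of a cluster can share reads, as described below, and Zfp729a of this cluster shared 30.8% of its coding sequence words. The 16 values may therefore not be independent.

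In a cluster of 4 KRAB members on chromosome 8, starting at 71882019, 3 members fell and the fourth also lay below 0. Of all genes at the same count condition 19.5% fell. The cluster was picked after its values were seen, and Zfp709 alone is named by the rule for naming genes. Zfp709 fell to 70.05%, as given above. Zfp961 fell from 20.3, 19.6, 19.6 and 18.1 CPM to 12.8, 15.2, 14.13 and 16.04 CPM, 75.3% of Ad-GFP (edgeR adjusted p = 4.591e-05). Zfp617 fell from 64.6, 61.8, 65.2 and 62.8 CPM to 55.3, 56.9, 54.3 and 54.7 CPM, 87.0% (adjusted p = 8.372e-05). For all 3 genes every Ad-Cre library was below every Ad-GFP library. Zfp882 stood at 82.6%, with 6.36, 6.75, 5.56 and 5.94 CPM in Ad-GFP and 4.92, 5.72, 4.57 and 5.07 CPM in Ad-Cre, where the groups overlapped. Its adjusted p was 0.0586, and it passed the test when Ad-Cre replicate 2 or Ad-GFP replicate 3 was left out (adjusted p down to 0.0311). Exons of Zfp617 and Zfp882 overlap by 104 bases on the same strand.

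Because the fold changes of these 4 neighbours all lay below 0, the 250 bases before the RefSeq start of each (GRCm38.p6, plus strand of chromosome 8) are shown, with CG dinucleotides, the sites of DNA methylation, in capitals. The windows are chr8:71881818-71882067 for Zfp709, chr8:71908356-71908605 for Zfp882, chr8:71922575-71922824 for Zfp617 and chr8:71950816-71951065 for Zfp961. The RefSeq start of Zfp617 lies 14190 bases inside its GENCODE gene, whose start is beside that of Zfp882.
Zfp709: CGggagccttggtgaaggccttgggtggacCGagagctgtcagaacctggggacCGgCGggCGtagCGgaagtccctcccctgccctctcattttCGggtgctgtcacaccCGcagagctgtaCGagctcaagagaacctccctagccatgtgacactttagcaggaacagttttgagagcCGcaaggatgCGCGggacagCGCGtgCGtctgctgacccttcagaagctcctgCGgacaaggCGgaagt
Zfp882: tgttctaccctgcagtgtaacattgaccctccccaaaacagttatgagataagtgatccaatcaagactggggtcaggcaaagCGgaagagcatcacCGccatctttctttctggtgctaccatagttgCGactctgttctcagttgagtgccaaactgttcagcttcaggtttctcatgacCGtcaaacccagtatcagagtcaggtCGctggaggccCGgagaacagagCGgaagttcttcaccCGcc
Zfp617: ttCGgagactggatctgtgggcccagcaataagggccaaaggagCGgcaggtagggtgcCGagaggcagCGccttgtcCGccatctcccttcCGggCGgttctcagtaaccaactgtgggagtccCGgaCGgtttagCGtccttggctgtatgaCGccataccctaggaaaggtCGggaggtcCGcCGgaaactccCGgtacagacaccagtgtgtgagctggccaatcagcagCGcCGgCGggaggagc
Zfp961: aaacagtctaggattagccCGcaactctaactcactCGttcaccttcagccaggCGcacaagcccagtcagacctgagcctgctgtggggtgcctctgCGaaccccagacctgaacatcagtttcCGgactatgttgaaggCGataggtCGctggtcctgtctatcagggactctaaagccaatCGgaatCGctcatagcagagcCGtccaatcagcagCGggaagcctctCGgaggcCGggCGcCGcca
The window of Zfp709 holds 17 CG, that of Zfp882 8, that of Zfp617 18 and that of Zfp961 15. RefSeq windows of the same length were matched by symbol for 248 of the 302 members. Their 300 windows held a median of 11 CG, against 6 over all 32851 windows. All windows together cover 27025 genes and were not limited to genes that met the count condition, so the sets compared here and below are not matched in level. The letters GGAAGTG, a form of the site bound by ETS factors, searched on both strands, were in 20.33% of the member windows and in 8.55% of all windows. None of the 4 windows printed here holds these letters on either strand. The shorter GGAAGT, without the last G, is in the windows of Zfp709 and Zfp882. The window of Zfp709 also ends in GGAAGT, and the base after it was not searched. These are counts of letters, with no measurement of methylation or binding.

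**Figure D4:**
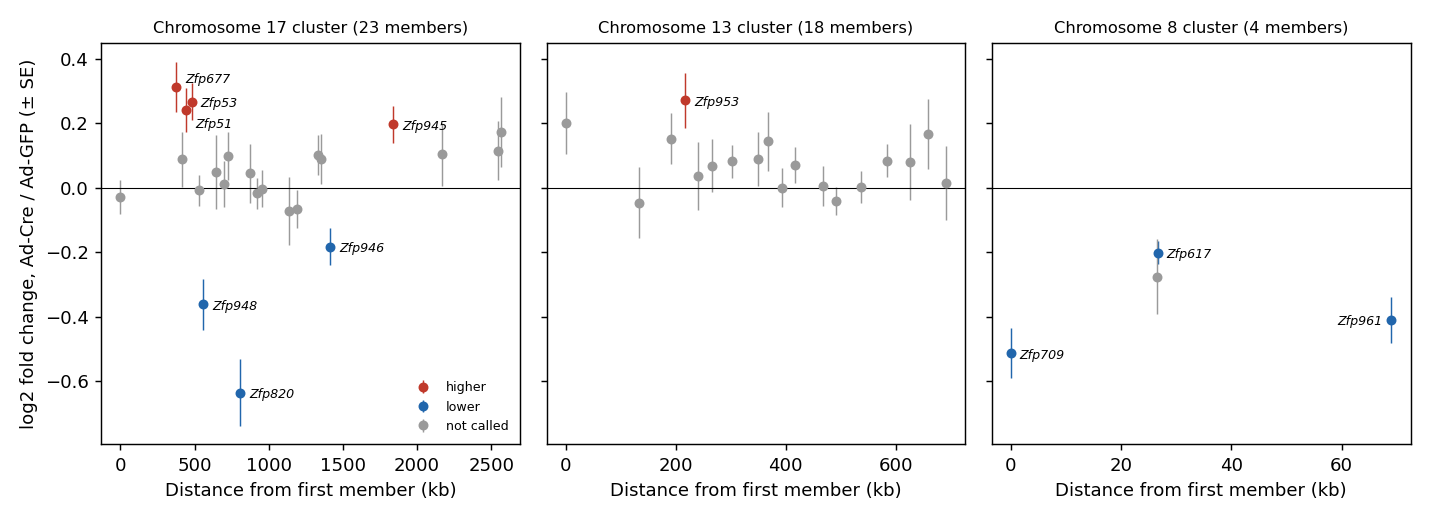
Log2 fold change of Ad-Cre against Ad-GFP (vertical axis, bars of 1 standard error) against the distance in kb from the first member (horizontal axis) for the members of the chromosome 17, chromosome 13 and chromosome 8 clusters; red marks genes called higher, blue genes called lower and grey genes not called. Rises and falls are mixed along the 23 members on chromosome 17, 16 of 18 members on chromosome 13 lie above 0, and all 4 on chromosome 8 lie below 0.

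Young duplicates in the family can share reads. Over coding sequences, 50 members shared more than 10% of their 50-base words with another gene. Of these, 3 rose and 1 fell (8.0% called), against 52 rises and 36 falls (34.9%) among the other 252 members. The share called of all genes at the same count condition was 43.2%. The median of the mean counts was 215.7 in the first set and 425.8 in the second. Values for members of the first set are uncertain, since reads of near-identical copies may have been divided between genes or dropped. Zfp781 is such a case, with all of its coding words also in Gm3055. It stood at 4.30, 5.14, 4.91 and 7.32 CPM in Ad-GFP and at 7.44, 7.86, 6.78 and 6.57 CPM in Ad-Cre, so the groups overlapped although it was called higher (132.9%, edgeR adjusted p = 0.0139). Without Ad-GFP replicate 1 its adjusted p was 0.0731. Exons of 12 members overlapped those of another gene over more than 10% of their length, among them Zfp335, which overlaps Pcif1 on the opposite strand over 23.3%. The sources used here do not give the strand setting of the counting, so reads of such pairs cannot be told apart.

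The authors' deposited table gave an FDR under 0.05 for 66 members, 37 higher and 29 lower in Ad-Cre. All 66 were also called here. Of 52 called genes followed under every alternative, 26 did not pass on log2(FPKM + 1) with limma. Among members these were Zfp445, Zfp703, Zfp462, Zfp532, Zfp644, Zfp148, Zfp263, Zfp326, Zfp622, Zfp518b, Zfp451, Zfp609, Zfp664, Zfp772, Zfp51, Zfp945, Zfp946, Zfp953 and Zfp781, with adjusted p between 0.0542 and 0.535. Of the pathway genes, the calls of Atf7ip, Uhrf1, Atrx and Cbx5 were lost there too, as were those of Ehmt2, Morc2a and Pphln1. On the same values Zfp266 and Zfp799, called higher on counts, had log2 fold changes of -0.0017 and -0.032 and were not called.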

How the data were processed

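RNA sequencing of 8 libraries, 4 Ad-GFP and 4 Ad-Cre, was analysed from the deposited gene table. The authors deposited whole-number read counts per gene and FPKM values of the same libraries, per the file headers. The authors' deposited p-values come from a test that the sources used here do not name, and their log2 fold changes were not used except for the sign of a call. The submitters' processing notes name GRCm38 and mm10. No aligner, counter or strand setting is given in the sources used here.

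Counts were fitted with edgeR 4.0.16 in R 4.3.3 (filterByExpr, TMM factors of 0.992 to 1.01, quasi-likelihood F-test, two-sided, Benjamini-Hochberg adjustment over 13337 genes, threshold 0.05). All 302 members passed the filter. The biological coefficient of variation was 2.89%, and the precision of each value is limited by its count, with the largest counting error for members near 100 counts. Percentages of the Ad-GFP level are back-transformed fitted log2 fold changes, and standard errors are absolute log2 fold changes over the root of F.

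Coordinates and coding sequences came from GENCODE M21 (GRCm38), in which 22267 of 22322 gene IDs were found. C2H2 fingers were matched by their spacing in translated coding sequences. KRAB domains were found with a pyhmmer 0.12.3 profile made from 216 sequences that carry the core of the KRAB A box, at an E-value of 1e-05. Promoter windows came from RefSeq (GRCm38.p6) and the 250 bases before each start were used.

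Alternatives were RLE and upper-quartile factors, no filter or a filter of 5 CPM, DESeq2 1.42.0, limma-voom (limma 3.58.1), limma on log2 FPKM with a pseudocount of 1 or 0.1 for genes with a mean of at least 1 FPKM, thinning to 15879244 counts, a replicate block and leaving out each library.

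The members, the lists of roles, pathway genes and cell type markers and the rule for named genes were chosen with earlier results of these data known. Named genes were Suv39h1, Trim28, Setdb1, the 6 largest rises and falls among called members whose groups do not overlap, the 4 members of highest FPKM, the 2 members of smallest p in each role list, the 2 symbols on each side of the count condition and the members of the largest cluster. Others were named after their values were seen, namely Zfp961, Zfp617, Zfp882, Zfp953, Zfp781, the remaining role-list members and the remaining pathway genes.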

Additional observations from a re-analysis of the deposited data

Results flagged for a closer look

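In 5 of 164 groups of 4 libraries, over the genes named here, 1 library stood apart from the other 3 by Dixon's criterion, which chance meets in about 5% of groups. Trim28 was at 246.2 CPM in Ad-GFP replicate 2, with the next library at 253.9 CPM. Suv39h2 was at 7.19 CPM in Ad-Cre replicate 2, with the next at 8.31 CPM. Zfp449 was at 15.5 CPM in Ad-Cre replicate 4, with the next at 15.1 CPM, a gap that is large only against the tight spread of the other libraries. Zfp758, of the chromosome 17 cluster, was at 11.8 CPM in Ad-GFP replicate 1, with the next at 12.4 CPM. Zfp953 was at 9.79 CPM in Ad-Cre replicate 1, with the next at 10.8 CPM. The cause was not tested for any of these.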

How the results depend on the processing

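The counts of members called lower, overall and in both classes, stayed within 1.5 times the reported counts under all 18 alternatives. The counts called higher did so except on FPKM, where 23 members, 10 KRAB members and 13 other C2H2 members were higher with either pseudocount (the cause was not tested). The median log2 fold change of the members was 0.0306 on log2(FPKM + 1), 0.0334 on log2(FPKM + 0.1), 0.0274 with a filter of 5 CPM, 0.0496 with no filter and 0.0229 with upper-quartile factors, and the cause was not tested. Its difference from the median of all genes ran from 0.0238 to 0.0501. Leaving out single libraries gave 43 to 51 members higher and 33 to 38 lower, 20 to 24 KRAB members higher, and medians from 0.0373 to 0.0470. DESeq2 called 39 higher and 30 lower. The fit with the replicate block gave 57 higher and 37 lower and ended the call of Zfp622 among the genes followed. Same-numbered libraries correlated at 0.083, 0.104, 0.0076 and -0.012 in their deviations, so the numbers were not taken to pair them, and 2 of 4 replicates correlated best with their own number. Of the 82 genes followed, 52 were called and 25 of those passed in every alternative that could be fitted for them. Over 1471 combinations of gene and alternative, 114 calls were lost, 7 were gained (Zfp882, Zfp931 and Zfp516) and none of the called genes among these 82 changed sign. Of all 92 called members, Zfp266 and Zfp799 changed sign on FPKM, where neither was called. Depth limited the members near 100 counts most.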

Other observations

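Genes outside the chosen set give a view of the rest of the family. Of 94 numbered Zfp symbols under the count condition, 57 were tested, with a median mean count of 66.1. Of these 57 genes, 4 rose and 3 fell (12.3% called, against 40.3% of all genes tested). Zfp536, a repressor known from neurons, showed the largest fall of these, from 2.35, 2.77, 3.90 and 4.38 CPM in Ad-GFP to 1.01, 0.757, 1.298 and 1.269 CPM in Ad-Cre, 32.5% of the Ad-GFP level (edgeR adjusted p = 2.411e-06, named after its value was seen). Of 60 tested KRAB genes with other names, 8 rose and 1 fell (13.3% and 1.67%, against 19.8% and 20.5% of all genes), and the median change was 0.08 on the log2 scale. On chromosome 2 lie 6 of these 8 rises, among them Gm14412 at 136.4% and Gm14296 at 123.2% of Ad-GFP, genes of a cluster known for close copies, whose sharing of reads was not measured. Zim1, an imprinted KRAB gene on chromosome 7, rose from 17.2, 14.4, 18.1 and 18.0 CPM to 21.3, 18.8, 19.8 and 20.2 CPM (adjusted p = 0.00914). Of 263 tested C2H2 genes with other names and no KRAB match, 71 rose and 40 fell (42.2%), close to the 40.3% of all genes tested.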
